A study of Mus musculus with 4 samples.

Results

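The Ikaros zinc finger family and 6 further genes of early lymphoid priming were described in HSCs with and without *Id2*. The members were 10 genes chosen by symbol: *Ikzf1*, *Ikzf2*, *Ikzf3*, *Ikzf5*, *Dntt*, *Satb1*, *Notch1*, *Ebf1*, *Bcl11a* and *Mef2c*. Of these, 7 had a row among the 19354 genes with values, and all 7 averaged at least 1 CPM (read counts scaled to a common library size), the minimum for a test, which 15895 genes reached. *Ikzf3*, which encodes Aiolos, *Dntt*, the terminal transferase that adds untemplated bases to rearranging antigen receptor genes, and *Ebf1*, the factor that commits progenitors to the B cell lineage, had no row by symbol or by Ensembl identifier, so no level is given for them. No gene with a row had fewer than 4 reads in its second-highest library.

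HSCs were sorted as LSK FLT3- CD48- CD150+ cells, LSK being lineage-negative cells with SCA1 and c-KIT on their surface. The control group was *Mx1-Cre; Id2+/+* and the deleted group *Mx1-Cre; Id2Fl/Fl*, here *Id2Δ/Δ*, and all mice carried *Mx1-Cre* and received pIpC. *Mx1-Cre* is driven by an interferon-responsive promoter that pIpC turns on, so both genotypes had the same exposure, and recombination is not limited to HSCs. Cells were taken 2 weeks after pIpC from mice aged 8 to 16 weeks, pooled from 14 *Id2+/+* and 15 *Id2Δ/Δ* mice in 2 experiments, and each genotype gave 2 libraries (replicates 1 and 2). Libraries could not be tied to an experiment from the labels, so a p-value measures the spread between these libraries only.

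Values were deposited as log2 CPM, quantile-normalized over the 4 libraries. Depths recovered from the low values were 14200000 to 18800000 reads. The targeted gene, *Id2*, was counted 93 and 98 times in *Id2+/+* HSCs and 0 times in both *Id2Δ/Δ* libraries. The 10 HSC markers examined all had rows, and *Kit* and *Hlf* lay among the most abundant genes, at or above the percentile 99.3. Their summed level was 4700 and 4630 CPM in *Id2+/+* and 3310 and 3800 CPM in *Id2Δ/Δ* HSCs. *Kit* alone, the gene of the sort marker c-KIT, had 2160 and 1950 CPM against 1170 and 1500 CPM. Of 8 B cell markers 3 had a row, and their summed level ran from 37.1 to 54.3 CPM over the 4 libraries. That of 4 T and NK cell markers with a row, of 9, ran from 68.8 to 83.2 CPM, that of 2 of 6 dendritic cell markers from 5.36 to 9.09 CPM, and that of 6 of 7 erythroid markers from 43.8 to 68.7 CPM. Since these are bulk libraries, fewer cells expressing a gene and less RNA per cell cannot be told apart.

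Ikaros family proteins bind DNA through zinc fingers near one end and pair with each other through zinc fingers at the other. They recruit the NuRD, SIN3 and CtBP corepressor complexes, and Ikaros itself, the product of *Ikzf1*, is needed for lymphoid development. Lymphoid priming is the low expression of lymphoid genes in cells that still have other fates. ID2 lacks a DNA-binding region and holds E proteins off DNA. E proteins otherwise bind E-boxes, the letters CANNTG in which N is any base, near many lymphoid genes.

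No member passed the test between genotypes. With limma over all 15895 tested genes, adjusted p-values of the 7 members lay between 0.910 and 0.954, and 0 members and 0 genes in all (0.0%) had an adjusted p under 0.05. The targeted gene *Id2* was not called either (log2 fold change -7.31, limma adjusted p = 0.910). The lack of a call thus does not show a lack of change. At an unadjusted p under 0.05, 2 members were lower in *Id2Δ/Δ* HSCs, *Bcl11a* and *Mef2c*, and 0 were higher, against 2.95% of all tested genes lower and 1.72% higher. Both *Id2Δ/Δ* libraries lay below both *Id2+/+* libraries for 3 members, *Bcl11a*, *Mef2c* and *Notch1*, and above them for 1, *Ikzf5*. Among all tested genes, 15.8% lay below and 19.0% above in that way. The log2 fold change (*Id2Δ/Δ* minus *Id2+/+*) was below 0 for 6 of 7 members, with a median of -0.17, while 48.3% of all tested genes were below 0, with a median of 0.011. This count rested on *Id2Δ/Δ* replicate 2, because without that library 3 members were below 0 and the median was 0.07.

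**Figure D1:**
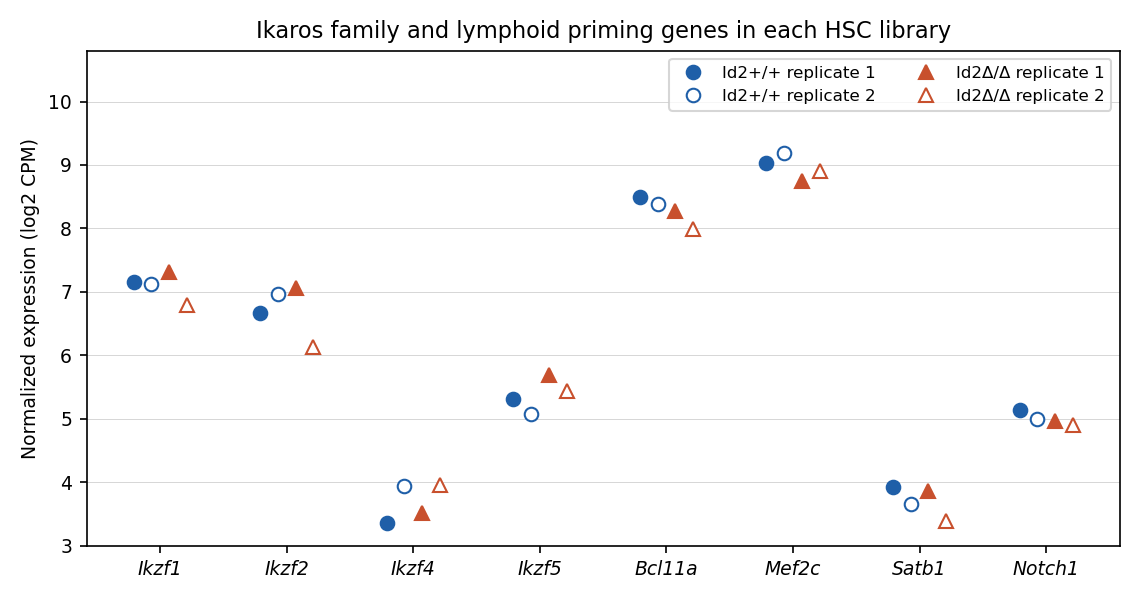
Normalized expression (log2 CPM) of the 7 members with a row and of the paralog *Ikzf4* in each library. Circles are *Id2+/+* and triangles *Id2Δ/Δ* libraries, filled for replicate 1 and open for replicate 2. *Bcl11a*, *Mef2c* and *Notch1* have both triangles below both circles, *Ikzf5* has both above, and *Ikzf1* and *Ikzf2* have the *Id2Δ/Δ* replicates on either side of the *Id2+/+* values.

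Per kilobase of longest transcript, the scale on which levels of different genes can be compared, *Mef2c* was first with a mean of 6.32 log2 CPM per kilobase (6.10 to 6.54 over 4 libraries). *Bcl11a* followed at 5.70 (5.41 to 5.91) and *Ikzf1* at 4.73 (4.43 to 4.95). These levels stood at the percentiles 96.2, 92.8 and 82.8 of all genes with a row and a known length, tested or not. *Ikzf2* had 3.49 (2.92 to 3.85) and *Ikzf5* 3.23 (2.93 to 3.55), and the ranges of that pair overlapped. *Notch1* had 1.75 (1.65 to 1.89). *Satb1* was the lowest member at 1.06 (0.74 to 1.29), at the percentile 32.8. Other neighbours in the order did not overlap. The longest annotated transcript need not be the one HSCs use, which limits this order.

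Ikaros was the leading family member. *Ikzf1* (ENSMUSG00000018654.17, chr11:11685003-11772926 of GRCm38, plus strand, 8 exons in the longest transcript) had 7.15 and 7.13 log2 CPM in *Id2+/+* and 7.32 and 6.80 in *Id2Δ/Δ* HSCs. The *Id2+/+* libraries lay between the *Id2Δ/Δ* libraries. Means were 7.14 ± 0.02 and 7.06 ± 0.37 (SD, n = 2 each), and the log2 fold change was -0.08 (SE 0.18, 95% interval -0.49 to 0.34, limma adjusted p = 0.954). Without *Id2Δ/Δ* replicate 2 it was 0.18.

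Helios, encoded by *Ikzf2*, is known from HSCs and regulatory T cells. *Ikzf2* (ENSMUSG00000025997.13, chr1:69531214-69687245, minus strand, 8 exons) had 6.66 and 6.96 log2 CPM in *Id2+/+* and 7.06 and 6.13 in *Id2Δ/Δ* HSCs, which is 101 and 124 CPM against 134 and 70.1 CPM. The *Id2Δ/Δ* libraries again lay on either side of the *Id2+/+* libraries. The log2 fold change was -0.21 (SE 0.28, 95% interval -0.87 to 0.45, limma adjusted p = 0.931) and became 0.25 without *Id2Δ/Δ* replicate 2.

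The *Id2Δ/Δ* replicates differed more in *Ikzf1* and *Ikzf2* than the *Id2+/+* replicates did. Replicate 2 minus replicate 1 was -0.52 log2 for *Ikzf1* and -0.93 for *Ikzf2* in *Id2Δ/Δ*, and -0.02 and 0.29 in *Id2+/+* HSCs. Over all tested genes the median absolute difference was 0.29 in *Id2Δ/Δ* and 0.19 in *Id2+/+*. Of the genes above 32 CPM, 1.17% differed more between the *Id2Δ/Δ* libraries than *Ikzf2* did, and 9.11% more than *Ikzf1* did. Between the same libraries the summed level of 8 neutrophil markers was 258 and 140 CPM, and that of 4 markers of lymphoid-primed multipotent progenitors was 141 and 106 CPM. In the *Id2+/+* libraries these sums were 276 and 170 CPM, and 167 and 112 CPM. Their part in the *Ikzf1* and *Ikzf2* values was not tested.

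*Ikzf5*, which encodes Pegasus, the member whose DNA contacts are the least like those of Ikaros, was the only one of the 7 with higher values in *Id2Δ/Δ* HSCs. *Ikzf5* (ENSMUSG00000040167.16, chr7:131388652-131410521, minus strand, 4 exons) had 5.31 and 5.08 log2 CPM in *Id2+/+* and 5.69 and 5.44 in *Id2Δ/Δ* libraries, or 39.5 and 33.9 CPM against 51.7 and 43.6 CPM. The groups did not overlap. The log2 fold change was 0.38, or 1.30-fold (SE 0.18, 95% interval -0.04 to 0.79, limma adjusted p = 0.910), and it lay between 0.25 and 0.50 when any 1 library was left out. *Pstk*, a tRNA kinase gene on the opposite strand that shares exon bases with *Ikzf5*, had 5.87 and 5.61 log2 CPM in *Id2+/+* and 6.08 and 5.94 in *Id2Δ/Δ* libraries. It was not stated whether counting used strand, so reads from the shared bases cannot be told apart.

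Of 86 tested genes on the lists described here, those whose pattern over the 4 libraries was most like that of *Ikzf5* were *Ncstn*, *Gata3* and *Aph1a*. Likeness was the largest absolute difference between log2 values centred on each gene's mean, which was 0.14, 0.19 and 0.20. *Ncstn* and *Aph1a* encode γ-secretase subunits and *Gata3* a T lineage factor. Their log2 fold changes were 0.22, 0.16 and 0.33, none of which passed the test, and *Aph1a* overlapped between genotypes. These genes were picked on the same 4 libraries. The choice itself therefore favours fold changes in the direction of *Ikzf5*, and no link between the genes was tested.

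*Ikzf4*, which encodes Eos and was not a member, was read to complete the family. It had 3.35 and 3.94 log2 CPM (148 and 239 reads) in *Id2+/+* and 3.52 and 3.95 (201 and 288 reads) in *Id2Δ/Δ* libraries, with a log2 fold change of 0.09 (SE 0.30). On the scale of CPM per kilobase summed over *Ikzf1*, *Ikzf2*, *Ikzf4* and *Ikzf5*, *Ikzf1* made up 55.8% and 53.0% in *Id2+/+* and 52.2% and 51.4% in *Id2Δ/Δ* libraries. *Ikzf2* made up 22.1% and 26.2% against 24.3% and 18.0%, and *Ikzf5* 18.1% and 15.0% against 19.7% and 23.4%. The shares of *Ikzf1* did not overlap between genotypes, nor did those of *Ikzf5*, while those of *Ikzf2* and *Ikzf4* did. The nearest *Ikzf1* shares were 53.0% in *Id2+/+* and 52.2% in *Id2Δ/Δ* libraries. The *Ikzf1* level itself overlapped, with 7.15 and 7.13 log2 CPM in *Id2+/+* and 7.32 and 6.8 in *Id2Δ/Δ* libraries. A share depends on the levels of all the summed genes, so its separation does not show a change in *Ikzf1* itself. With 2 libraries against 2 an exact permutation test of a share cannot go below 0.333, so no test is given.

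**Figure D2:**
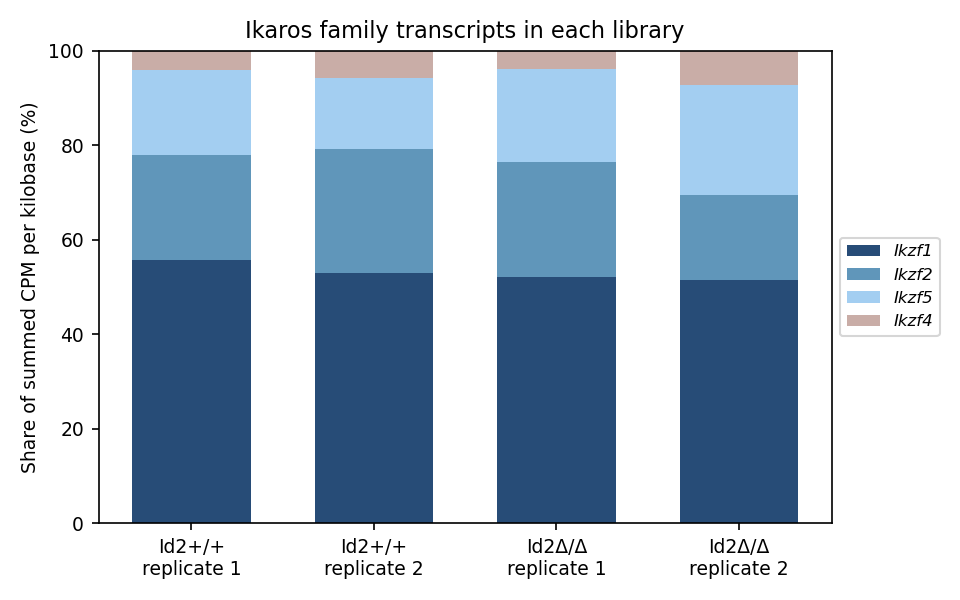
Share of each Ikaros family gene (%) in the summed CPM per kilobase of *Ikzf1*, *Ikzf2*, *Ikzf5* and *Ikzf4* in each library, stacked to 100%. *Ikzf1* takes 51.4% to 55.8% in the 4 libraries, and *Ikzf5* is at its highest, 23.4%, in *Id2Δ/Δ* replicate 2, where *Ikzf2* is at its lowest, 18.0%.

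*Bcl11a* and *Mef2c* were the most abundant members, and both had lower values in *Id2Δ/Δ* HSCs. BCL11A is a zinc finger repressor needed for B cell development and for silencing fetal globin, and MEF2C a MADS-box factor that favours lymphoid over myeloid fate and is held in check by class IIa deacetylases. *Bcl11a* (ENSMUSG00000000861.15, chr11:24078056-24174123, plus strand, 4 exons) had 8.49 and 8.38 log2 CPM in *Id2+/+* and 8.27 and 7.99 in *Id2Δ/Δ* libraries, or 359 and 334 CPM against 308 and 255 CPM. The groups did not overlap, and the log2 fold change was -0.31, or 0.809-fold (SE 0.13, 95% interval -0.60 to -0.01, limma adjusted p = 0.910).

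*Mef2c* (ENSMUSG00000005583.16, chr13:83504034-83667080, plus strand, 12 exons) had 9.03 and 9.19 log2 CPM in *Id2+/+* and 8.75 and 8.90 in *Id2Δ/Δ* libraries, or 521 and 585 CPM against 430 and 477 CPM. Both *Id2Δ/Δ* values were again below both *Id2+/+* values. The log2 fold change was -0.29, or 0.820-fold (SE 0.11, 95% interval -0.55 to -0.03, limma adjusted p = 0.910). Leaving out any 1 library gave -0.44 to -0.17 for *Bcl11a* and -0.37 to -0.20 for *Mef2c*.

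Some other abundant HSC genes also had lower values in *Id2Δ/Δ* HSCs. Of the 10 HSC markers, 5 had both *Id2Δ/Δ* libraries below both *Id2+/+* libraries and 4 were lower at an unadjusted p under 0.05, with 0 called, against 15.8% and 2.95% of all tested genes. The log2 fold change was above 0 for 3 of the 10, and 1 had both *Id2Δ/Δ* libraries above, *Slamf1*, the gene of the sort marker CD150, at 0.26 (SE 0.15). *Kit*, the gene of the sort marker c-KIT, had the largest absolute change of the 10, at -0.63 (SE 0.13). The HSC regulator *Hlf*, at a level close to that of *Mef2c*, had 9.14 and 9.23 log2 CPM in *Id2+/+* and 8.84 and 8.93 in *Id2Δ/Δ* libraries, a log2 fold change of -0.30 (SE 0.10). The part of this in the *Bcl11a* and *Mef2c* values was not tested.

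Transcript length moved with the genotype difference too. The members' longest transcripts ran from 4430 to 9488 bases, with a median of 6243 against 2955 over the tested genes. Of the 4637 tested genes with a longest transcript of 4000 to 10000 bases, 60.4% had a log2 fold change below 0, and their median was -0.06. With each library corrected for length, the member median was -0.07 in place of -0.17, and 5 of 7 members were below 0. *Ikzf1* was then at -0.01, *Ikzf2* at -0.07, *Satb1* at -0.08 and *Notch1* at 0.0028. *Bcl11a* was at -0.22, *Mef2c* at -0.20 and *Ikzf5* at 0.42.

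**Figure D3:**
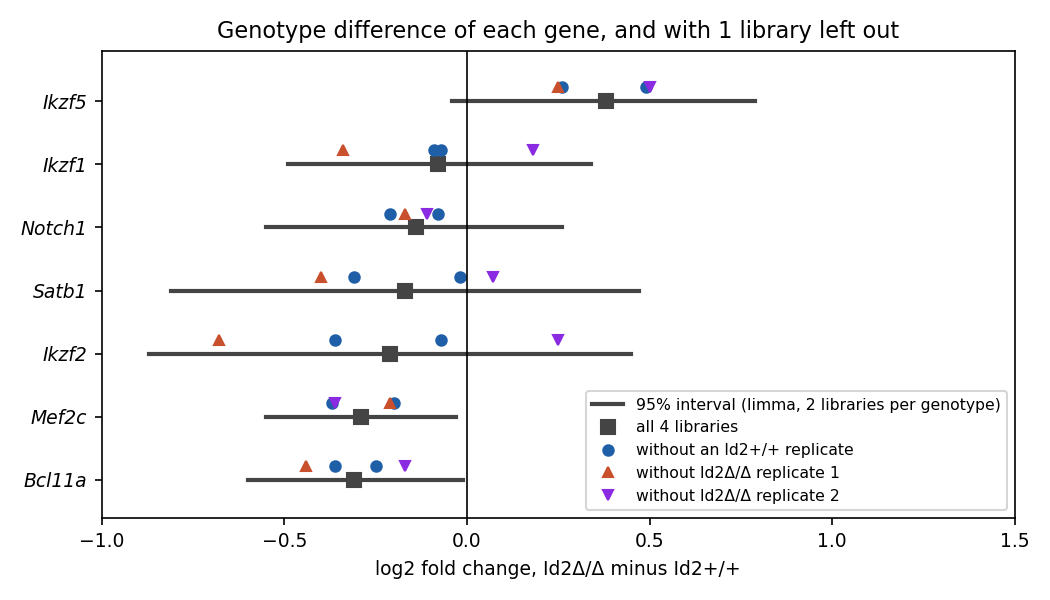
Log2 fold change (*Id2Δ/Δ* minus *Id2+/+*) of each member, with its 95% interval from limma (line) and the value after leaving out 1 library (coloured symbols). *Ikzf5* stays above 0 and *Bcl11a*, *Mef2c* and *Notch1* below 0 in each case. This had to be so, since their libraries do not overlap between genotypes. *Ikzf1*, *Ikzf2* and *Satb1* cross 0 without *Id2Δ/Δ* replicate 2.

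The RefSeq promoter windows of *Bcl11a* and *Mef2c*, the 2 members with an unadjusted p under 0.05, are shown because E-boxes are the letters that E proteins, the partners of ID2, bind. They are from GRCm38, 5′ to 3′ on the plus strand, with each CANNTG in capitals. That of *Mef2c* covers the 250 bases before its first RefSeq start, and that of *Bcl11a* leaves off the last 25 of its 250 bases, which belong to an annotated transcript.
Mef2c chr13:83503784-83504033: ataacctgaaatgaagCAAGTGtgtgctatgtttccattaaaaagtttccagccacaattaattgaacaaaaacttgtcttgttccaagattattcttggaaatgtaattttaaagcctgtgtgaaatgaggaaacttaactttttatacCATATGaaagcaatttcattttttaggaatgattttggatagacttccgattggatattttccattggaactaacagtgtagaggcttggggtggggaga
Bcl11a chr11:24080445-24080669: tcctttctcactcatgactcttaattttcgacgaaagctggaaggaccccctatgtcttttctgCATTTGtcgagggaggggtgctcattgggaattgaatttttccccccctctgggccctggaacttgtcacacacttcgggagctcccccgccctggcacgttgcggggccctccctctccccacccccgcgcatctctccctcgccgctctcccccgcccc

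*Mef2c* held CAAGTG and CATATG, which begin 234 and 100 bases before the start, and *Bcl11a* held CATTTG at 186 bases. CANNTG reads as CANNTG on both strands. RefSeq windows matched 8 of the 10 members, all but *Ikzf2* and *Ikzf3*. Only the window at the most upstream start was read for each, although *Ikzf1* and *Ebf1* have 2, *Mef2c* 3 and *Satb1* 5. Of the 8 windows read, 3 held a CANNTG, the third being *Dntt* with 3, and those read for *Ikzf1*, *Ikzf5*, *Satb1*, *Notch1* and *Ebf1* held none. The one read for *Ebf1* lies wholly in an annotated *Ebf1* exon. Those read for *Ikzf1*, *Notch1* and *Bcl11a* lie within the annotated span of their own gene, past its first annotated start. Over 32851 windows of the same length 66.2% held at least 1 CANNTG and 12.2% at least 3. The windows differed in base composition, with 33.6% G or C in *Mef2c* and 62.0% in *Bcl11a* against a median of 52.4%. Which start HSCs use was not measured here.

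*Satb1* encodes a chromatin organizer that favours lymphoid differentiation. *Satb1* (ENSMUSG00000023927.15, chr17:51736187-51833290, minus strand, 11 exons) had 3.93 and 3.65 log2 CPM in *Id2+/+* libraries, from 216 and 197 reads, and 3.86 and 3.39 in *Id2Δ/Δ* libraries, from 259 and 191 reads. The groups overlapped, and the log2 fold change was -0.17 (SE 0.27, 95% interval -0.81 to 0.47, limma adjusted p = 0.940). It was 0.07 without *Id2Δ/Δ* replicate 2.

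*Notch1* encodes the receptor that starts T cell development when thymic ligands bind it. *Notch1* (ENSMUSG00000026923.15, chr2:26457903-26516663, minus strand, 34 exons) had 5.14 and 5.0 log2 CPM in *Id2+/+* and 4.96 and 4.90 in *Id2Δ/Δ* libraries, or 35.2 and 32.1 CPM against 31.1 and 29.8 CPM. The groups did not overlap, their nearest values being 5.0 and 4.96, and the log2 fold change was -0.14 (SE 0.17, 95% interval -0.55 to 0.26, limma adjusted p = 0.927). After the length correction it was 0.0028.

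Among the other NOTCH receptors, ligands and processing enzymes, 21 of 22 had a row and 20 were tested, of which 11 had a log2 fold change above 0 and 9 below, with a median of 0.02 and 0 called. *Notch4* had the smallest p, with 0.33 and -0.43 log2 CPM in *Id2+/+* and 1.30 and 2.27 in *Id2Δ/Δ* libraries (log2 fold change 1.84, SE 0.64, limma adjusted p = 0.910). It was a low gene, with 18 and 12 reads in the *Id2+/+* libraries. *Notch2* had 5.46 and 5.68 against 5.28 and 5.28 log2 CPM (log2 fold change -0.29, SE 0.16). The most abundant genes on this list were *Adam10*, the protease that cuts the receptor outside the cell, at -0.11, and *Mfng*, a glycosyltransferase that tunes ligand choice, at 0.05.

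Of 12 genes of the NOTCH nuclear complex and its targets, 9 were tested, 5 above 0 and 4 below, with a median of 0.04 and 0 called. The coactivator gene *Maml2* had a log2 fold change of -0.23 (SE 0.19) and *Dtx4*, a ubiquitin ligase gene, one of -0.62 (SE 0.49). The ligase gene *Dtx3*, an abundant one, was at 0.08. None of these separated the genotypes.

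The corepressor genes that Ikaros proteins recruit had log2 fold changes between -0.20 and 0.17. All 17 of the NuRD, SIN3 and CtBP genes examined were tested, 7 above 0 and 10 below, with a median of -0.01, 0 called and 0 at an unadjusted p under 0.05. *Rbbp7*, a histone chaperone subunit, had 8.64 and 8.73 log2 CPM in *Id2+/+* and 8.62 and 8.68 in *Id2Δ/Δ* libraries (95% interval of the log2 fold change -0.27 to 0.20). For *Ctbp1* the interval was -0.29 to 0.22. The smallest p-values belonged to *Rbbp4*, at 0.17 (SE 0.13), and *Ctbp2*, at -0.20 (SE 0.17).

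The class IIa deacetylase genes, which encode the MEF2 corepressors, were all tested, 3 of 4 above 0, with a median of 0.03 and 0 called. *Hdac5* had 5.99 and 6.19 log2 CPM in *Id2+/+* and 6.34 and 6.22 in *Id2Δ/Δ* libraries (log2 fold change 0.19, SE 0.15), which did not overlap. *Hdac7*, *Hdac4* and *Hdac9* were at 0.00, -0.03 and 0.05. Among paralogs of the members, 5 of 11 were tested, 2 above 0 and 3 below, with a median of -0.10. *Mef2d* was at -0.10 (SE 0.14) and *Mef2a* at -0.17 (SE 0.15), and both overlapped between genotypes. *Poll*, a DNA polymerase gene related to *Dntt*, was at 0.14 (SE 0.18).

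Other lymphoid transcription factors had 20 of 26 genes tested, of which 4 were above 0 and 16 below, against 48.3% of all tested genes below 0, with a median of -0.08 and 0 called. Both *Id2Δ/Δ* libraries lay below both *Id2+/+* libraries for 5 of the 20 and above them for 1, against 15.8% and 19.0% of all tested genes. *Foxo1*, which supports *Il7r* and *Rag* transcription, had 5.92 and 5.63 log2 CPM in *Id2+/+* and 5.05 and 5.47 in *Id2Δ/Δ* libraries (log2 fold change -0.52, SE 0.20, limma adjusted p = 0.910). *Tcf12*, which encodes the E protein HEB, had 7.22 and 7.25 against 6.82 and 7.05 (log2 fold change -0.30, SE 0.13, limma adjusted p = 0.910). The abundant *Myb* and *Foxp1* were at -0.08 and -0.06.

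Of 22 surface and recombination genes of lymphoid progenitors, 12 had a row and 11 were tested, 3 above 0 and 8 below, with a median of -0.12 and 0 called. The 10 without a row were *Il7r*, *Rag1*, *Rag2*, *Ccr7*, *Ly6d*, *Igll1*, *Vpreb2*, *Vpreb3*, *Cd79a* and *Ptcra*, and the product of *Il7r* was among the lineage markers of the study's HSC staining. *Flt3*, whose product the sort selected against, had 5.63 and 5.62 log2 CPM in *Id2+/+* and 5.63 and 5.47 in *Id2Δ/Δ* libraries. *Cd48*, also the gene of a negative sort marker, had 3.04 and 1.89 against 1.40 and 1.96 (log2 fold change -0.79, SE 0.50). *Ccr9*, a chemokine receptor gene, had -0.88 and 0.33 against 1.71 and 0.12 (log2 fold change 1.19, SE 0.84). The signalling genes *Jak3* and *Il2rg* were at -0.14 and -0.12.

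**Figure D4:**
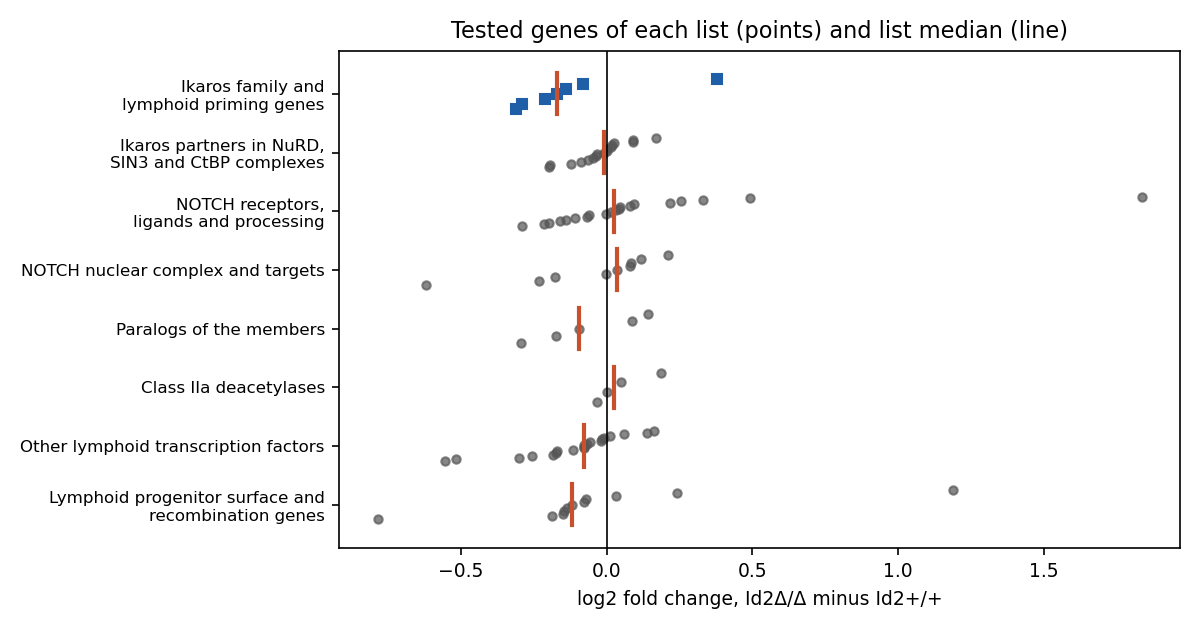
Log2 fold change (*Id2Δ/Δ* minus *Id2+/+*) of each tested gene (points, squares for the members) by list, with the list's median as a vertical line. List medians lie between -0.17 for the members and 0.04 for the NOTCH nuclear complex and targets, and *Notch4* at 1.84 and *Ccr9* at 1.19 stand to the right of the rest.

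Genes annotated over the members were read as well, a choice made after their values were seen. There were 16 with a row, 13 of them tested, of which 5 had both *Id2Δ/Δ* libraries below both *Id2+/+* libraries and 2 had both above, against 15.8% and 19.0% of all tested genes. Most were noncoding. Both *Id2Δ/Δ* libraries lay below for 18.6% of tested antisense genes and above for 15.7%. For sense-intronic genes these shares were 34.5% and 4.76%. For TEC genes, whose transcripts await experimental support, they were 28.1% and 7.64%. The 4 noncoding genes with a row over *Ikzf1* and *Ikzf2* were all among the 5. *Gm29112* (chr1:69595036-69598522), in an intron of *Ikzf2* on the same strand, had 69 and 90 reads in *Id2+/+* and 13 and 15 in *Id2Δ/Δ* libraries, or 2.24 and 2.51 against -0.32 and -0.12 log2 CPM. Its log2 fold change was -2.59 (SE 0.52, 95% interval -3.81 to -1.37, limma adjusted p = 0.910).

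*Gm28112* (chr1:69660187-69662061), also intronic in *Ikzf2* and on its strand, had 121 and 88 reads in *Id2+/+* against 44 and 44 in *Id2Δ/Δ* libraries (log2 fold change -1.43, SE 0.41, limma adjusted p = 0.910). Opposite to *Ikzf2*, *Gm29114* had 26 and 49 reads against 21 and 19 (log2 fold change -1.01, SE 0.61). *Gm12000*, antisense within *Ikzf1*, had 64 and 44 reads against 22 and 34 (log2 fold change -1.14, SE 0.55). The *Id2Δ/Δ* replicates thus had similar reads in the 2 intronic genes, 13 and 15 and 44 and 44, while *Ikzf2* itself had 134 and 70.1 CPM in them. Reads of unspliced *Ikzf2* RNA and of the 2 intronic genes cannot be told apart.

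Most intronic noncoding genes in the table had lower values in *Id2Δ/Δ* libraries. Of 84 tested genes of the sense-intronic type, 70.2% had a log2 fold change below 0 and 34.5% had both *Id2Δ/Δ* libraries below, with a median of -0.37. *Gm29112* had the lowest log2 fold change of the 84, and 13 of them were lower than *Gm28112*. Protein-coding genes had a median of 0.01, and 15.4% of 12366 had both *Id2Δ/Δ* libraries below.

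**Figure D5:**
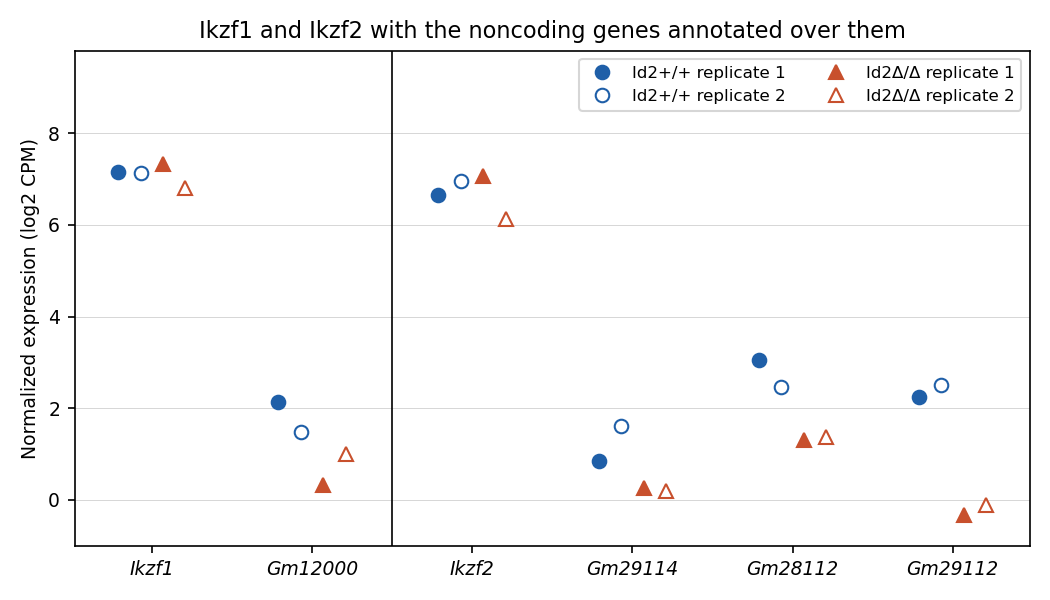
Normalized expression (log2 CPM) of *Ikzf1* and *Ikzf2* and of the 4 noncoding genes with a row annotated over them, by library, with circles for *Id2+/+* and triangles for *Id2Δ/Δ* libraries, filled for replicate 1 and open for replicate 2. Both triangles are below both circles for each noncoding gene, down to -0.32 and -0.12 for *Gm29112*, while they straddle the circles for *Ikzf1* and *Ikzf2*.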

How the data were processed

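RNA-Seq libraries of sorted HSCs were compared, 2 *Id2+/+* and 2 *Id2Δ/Δ*. The authors deposited log2 CPM values, read as such from the values, which were quantile-normalized and in which all 4 columns share a median of 3.92. The submitters' processing notes list CASAVA 1.8.4, Trimmomatic 0.30, TopHat2 2.0.8, RSEM and STAR and the builds mm9 and NCBIM37, without roles. Use of strand and the counting of shared reads are not given in the sources used here. The deposited values hold no coordinates. Those printed, and transcript lengths, are those of GENCODE M21 (GRCm38), in which 99.7% of the Ensembl identifiers were found, and promoter windows are from RefSeq on GRCm38.p6.

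Genes averaging 1 CPM or more were tested on the deposited log2 scale with limma 3.58.1 in R 4.3.3, with lmFit for genotype alone and eBayes with its trend option. Two-sided p-values were adjusted by Benjamini-Hochberg over all tested genes, and adjusted p-values under 0.05 counted as calls. The methods text used here names no test for these data. Below 32 CPM, ranks of distinct values gave whole reads, and hence depth. A count of 0 allows up to 3 reads, or 0.159 to 0.211 CPM, for counting error only. The script was tested on simulated data.

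The members and lists were chosen with earlier results of these data known. Named were all members, the 2 most abundant tested genes and the 2 with the smallest p of each list, the 3 genes nearest to the member with the largest separated change, and markers. The genes over members, and the count of members below 0, were chosen after seeing the data. Alternatives varied libraries, scaling, pseudocount, threshold, low-value filter, variance trend, the replicate number as a block and a length correction (natural spline, 5 degrees of freedom).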

Additional observations from a re-analysis of the deposited data

How the results depend on the processing

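The filters, the variance trend and the replicate block cannot move a fold change between groups of 2. Over the member and setting combinations that can, 63 in all, its direction was kept in 57 and turned in 6. Without *Id2Δ/Δ* replicate 2 it turned for *Ikzf1* (0.18), *Ikzf2* (0.25) and *Satb1* (0.07), which were at -0.34, -0.68 and -0.40 without *Id2Δ/Δ* replicate 1, and in the libraries of replicate number 1 alone for *Ikzf1* (0.17) and *Ikzf2* (0.40, against -0.83 in those of number 2 alone). For *Notch1* it turned with the transcript length correction (0.0028). Adding the replicate block to that correction, a setting not counted in the 63, left it at the same value. *Ikzf5*, *Bcl11a* and *Mef2c* kept their direction under every alternative run. Their libraries, like those of *Notch1*, did not overlap between genotypes. Leaving out a library, taking 1 replicate number alone or adding a pseudocount therefore could not turn the direction of these genes. Only the rescaling and the length correction could, so part of the 57 was fixed by the values. Leaving out 1 library gave 3 to 6 members below 0 and a member median of -0.34 to 0.07, the extremes of the median being without *Id2Δ/Δ* replicate 1 and replicate 2, and where a genotype had 1 library left it was assumed to vary like the other. The cause was not tested.

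With limma, 0 members had an adjusted p under 0.05 under any alternative. At an unadjusted p under 0.05, 2 members and 742 genes were called. The replicate block called 1 gene in all, with or without the length correction, against 0 without a block. The labels tie no number to an experiment, and deviations of same-numbered libraries correlated at 0.0592 over 15895 genes, so the libraries share only a number. Rescaling moved a library by at most 0.0164 log2. With 2 libraries a genotype, the 95% interval of the fold of *Ikzf5* ran from 0.971 to 1.73, a range that includes a fold of 1.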

Other observations

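Noncoding genes over the other members were read as well. Over *Ikzf5*, *Gm44624* was tested and had a log2 fold change of 1.27 (SE 0.96), with 94 of its reads in *Id2Δ/Δ* replicate 1 against 11 to 16 in the other libraries. Over *Satb1*, *E430014B02Rik* was at 0.45 (SE 0.53) with both *Id2Δ/Δ* libraries above, *C230085N15Rik* at -0.66 (SE 0.65) and *5830444F18Rik* at -0.43 (SE 0.88). *Gm12064*, antisense within *Bcl11a* without shared exon bases, had 2.61 and 2.97 log2 CPM in *Id2+/+* and 2.56 and 1.55 in *Id2Δ/Δ* libraries, from 88, 126, 105 and 50 reads, a log2 fold change of -0.74 (SE 0.44) that did not pass the test. *4930538E20Rik*, which shares exon bases with *Bcl11a* on the opposite strand, had 4.84 and 4.69 against 4.97 and 4.58 log2 CPM, a log2 fold change of 0.01 (SE 0.21). Opposite to *Notch1*, *0610009E02Rik* was at 0.05 (SE 0.32) and *Gm13568* at -0.19 (SE 0.48).

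Other noncoding types were read for comparison, after their values were seen. Of 772 tested genes of the annotation type TEC, whose transcripts await experimental support, 70.6% had a log2 fold change below 0, with a median of -0.31. Of 929 antisense genes it was 53.3%, with a median of -0.03, and of 12366 protein-coding genes 47.4%.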
